A study of Mus musculus with 5 samples.

Results

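Type I interferons induce a broad set of antiviral effector genes, and 49 of these, listed by symbol and not picked by a measured threshold, were followed in mouse aortic macrophages of the intima, the innermost layer, and the adventitia, the outermost. A total of 48 of the 49 symbols were matched to 1 of the 41388 Ensembl gene IDs of the count tables, and all 48 were among the 13408 genes with enough reads to be tested; Gbp5 was not analysed here. The set holds 5 nucleic acid sensors, 15 genes that act on viral RNA or on nucleotides, 4 membrane-associated restriction factors, 6 genes of the ISG15 and ubiquitin system, 8 interferon-inducible GTPases, 6 transcription factors and co-regulators and 5 further interferon-induced genes.

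The 3 adventitia libraries came from ApoE-/- mice on the C57BL/6 strain, kept for 28 weeks on high fat feed; the labels mention 6 mice in all and do not say how they were divided. Their cells were live CD64+ cells sorted out of stripped adventitia of the entire aorta, abdominal segment included. The 2 intima libraries came from C57BL/6 mice, 5 pooled per library, and their cells were live CD64+ CD11c+ MHC II+ cells sorted out of the thoracic segments once the adventitia was gone. No diet was given for the intima mice and no age for either group. Tissue layer, Apoe genotype, diet, aortic segment and sort gate therefore changed together and cannot be told apart, and with no statement that the adventitia libraries came from separate mice, p-values reflect only how far these libraries scatter, which may be technical in part.

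Type I interferons, interferon beta (Ifnb1) among them, signal through the receptor chains IFNAR1 and IFNAR2 and the kinases JAK1 and TYK2. These lead to the assembly of the factor ISGF3, which contains STAT2 and IRF9, and ISGF3 binds the interferon-stimulated response element in target promoters. Interferon gamma acts at gamma-activated sites, which are prominent in the promoters of the GTPase genes. Macrophages can both make interferon beta after sensing nucleic acids or bacterial products and respond to it, and many of these genes also have a basal level without any infection.

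The totals were 3941381, 10076142 and 10054377 counted reads in the adventitia libraries and 14970204 and 20806925 in the intima libraries, yet a read was found for 16374 to 17489 genes in the intima libraries against 23289 to 25738 in the adventitia libraries. All 12 macrophage markers were detected in every library, with summed levels of 23213 to 34158 CPM (read counts scaled to a common library size) in the adventitia and 22411 to 32321 CPM in the intima. Levels are given throughout as CPM after TMM scaling, which adjusts library sizes for composition, with the adventitia replicates 1, 2 and 3 first and the intima replicates 1 and 2 after them. Apoe was at 18.2, 18.1 and 10.9 CPM in the knockout libraries and at 5563 and 4409 CPM in the intima libraries. Summed markers of other cells differed between the groups, at 33.5 to 52.3 CPM in the adventitia against 869 to 1007 in the intima for 12 endothelial genes, 5.52 to 12.7 against 132 to 318 for 10 smooth muscle genes, and 653 to 1559 against 322 to 371 for 10 fibroblast genes. Sums were also lower in the intima for 8 conventional dendritic cell genes, at 241 to 441 against 41.1 to 46.1 CPM, with Xcr1 at 0 in both intima libraries. The same held for the sum of 8 monocyte genes, at 885 to 1571 against 462 to 840 CPM. The monocyte genes went both ways, as the edgeR test used below called 1 of them higher and 1 lower in the intima. Sums were higher in the intima for 7 B cell genes, at 221 to 778 against 930 to 1127 CPM. Yet 2 and 5 of the 7 were at 0 in intima replicates 1 and 2, Ms4a1 and Jchain in both. They were also higher for 10 T and NK cell genes, at 7.14 to 8.75 against 90.3 to 129 CPM. Of these 10, 6 and 4 were at 0 in intima replicates 1 and 2, Nkg7, Ncr1 and Klrb1c in both. The higher sums thus rest on the remaining genes of each list. The 8 neutrophil genes summed to 60.2 to 108 against 5.41 to 106 CPM, with Ly6g and Retnlg at 0 in both intima libraries. The 10 plasmacytoid dendritic cell genes summed to 362 to 538 CPM in the adventitia and 349 to 407 in the intima, but Tcf4 and Irf8, which other cells also express, carried most of this and ran in opposite directions: Tcf4 was at 443, 309 and 244 against 188 and 93.4 CPM and Irf8 at 45.3, 51.6 and 76.0 against 117 and 301 CPM. Siglech, more specific to that cell type, was at 44.9, 57.7 and 36.7 against 44.1 and 0.0504 CPM, and Klk1, Cox6a2, Pacsin1 and Ly6d were at 0 in both intima libraries. The part of these cells in any difference described here was not tested.

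To show the promoter element that the named genes are known for, promoter windows from RefSeq (GRCm38.p6, from 250 bases before to 50 after the start) were searched for the core GAAANNGAA on either strand. A window was found for 38 of the 49 genes, and 22 of these 38 (57.9%) held at least 1 match, against 9.76% of the 27025 genes in the table. The element TTCNNNGAA, which reads the same on both strands and is the core of the gamma-activated site, was in 12 of the 38 (31.6%) against 9.55% of all genes. Of the 3 differences of largest size in each direction among genes with a window and an average log2 CPM of at least 4, Isg15, Gbp3, Ifitm2 and Ifih1 held a GAAANNGAA match before the start and are printed below as the 250 bases before it, while Ifitm3 had both of its matches after the start and Cmpk2 had none in its window. Each is written 5′ to 3′ on the strand of the gene, with matched bases in capitals. Isg15 (chr4:156200819-156201068, minus strand) and Gbp3 (chr3:142559794-142560043, plus strand) were higher in both intima libraries than in any adventitia library, and Ifitm2 (chr7:140955962-140956211, minus strand) and Ifih1 (chr2:62646256-62646505, minus strand) were lower.
Isg15: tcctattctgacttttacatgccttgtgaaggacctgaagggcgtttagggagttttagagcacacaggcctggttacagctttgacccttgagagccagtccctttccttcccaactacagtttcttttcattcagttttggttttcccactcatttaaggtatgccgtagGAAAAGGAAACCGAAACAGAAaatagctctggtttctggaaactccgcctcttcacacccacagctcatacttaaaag
Gbp3: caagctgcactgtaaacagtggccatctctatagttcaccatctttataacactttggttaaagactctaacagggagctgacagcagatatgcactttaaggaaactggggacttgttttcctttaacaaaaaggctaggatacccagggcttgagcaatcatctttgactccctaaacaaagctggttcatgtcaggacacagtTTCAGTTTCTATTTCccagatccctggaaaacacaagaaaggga
Ifitm2: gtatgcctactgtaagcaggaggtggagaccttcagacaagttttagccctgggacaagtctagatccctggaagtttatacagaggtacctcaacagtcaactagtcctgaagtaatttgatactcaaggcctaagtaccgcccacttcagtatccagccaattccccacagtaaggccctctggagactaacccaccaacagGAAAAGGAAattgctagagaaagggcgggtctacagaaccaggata
Ifih1: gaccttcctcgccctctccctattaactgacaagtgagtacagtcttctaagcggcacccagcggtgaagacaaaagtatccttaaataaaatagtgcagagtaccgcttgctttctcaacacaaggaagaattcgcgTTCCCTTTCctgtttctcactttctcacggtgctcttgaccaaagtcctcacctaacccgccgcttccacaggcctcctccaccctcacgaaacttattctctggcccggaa

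The 3 matches of Isg15 overlapped one another and began 78, 72 and 66 bases before the start. Gbp3 held 2 overlapping matches that began 44 and 38 bases before the start, Ifitm2 held 1 at 46 bases and Ifih1 held 1 at 112 bases. A match was thus found on both sides of the comparison. Among the genes with a window and a level, both intima libraries were above every adventitia library for 5 of 21 with a match and 1 of 16 without one, and below every adventitia library for 7 of 21 and 2 of 16, beside 17.7% and 23.2% of all genes tested. The difference between genes with and without a match was not tested. A match describes letters in this window only and is not evidence of binding.

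Interferon beta itself differed widely between the layers, and in such bulk libraries more cells with a transcript and more of it per cell cannot be told apart. Ifnb1 (chr4:88522025-88522774, minus strand) had 0, 0 and 1 read in the adventitia libraries and 284 and 1622 reads in the intima libraries, or 22.3 and 81.7 CPM in the intima. The edgeR quasi-likelihood test gave a log2 difference of 10.03 (SE 1.63, adjusted p = 0.0178, Benjamini-Hochberg over all genes tested), and with a single adventitia read the ratio of pooled reads carried a 95% counting interval of 263 to 57899. The call was lost without adventitia replicate 1, 2 or 3, with adjusted p = 0.215, 0.0696 and 0.0977 in edgeR. Intima replicate 2 stood 3.67-fold above intima replicate 1 (95% counting interval 3.23 to 4.18), so the libraries had the order intima replicate 2, intima replicate 1, then every adventitia library. Of the other 20 interferon ligand genes, none had more than 3 reads in any library, the gamma, lambda and alpha genes included.

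The effector genes as a set did not take the same course. None of the 48 passed the edgeR test at an adjusted p under 0.05. Few of all genes tested did (90 of 13408, 0.671%), so the absence of calls does not set the 48 apart. At an unadjusted p under 0.05 edgeR gave 9 of the 48, with Gbp3 higher in the intima, against 8.16% of all genes, and 8 lower, against 14.3%. DESeq2 and limma voom each called 6 at an adjusted p under 0.05, all lower (Oas3, Mx2, Ifitm2, Ifitm3, Ifi44 and Ifi27l2a), and they called 5.41% and 4.66% of all genes in that direction. The median log2 difference of the 48 genes was -0.32, with 20 above 0 and 28 below it, against a median of 0.14 over all genes tested. The median of all genes moved to -0.35 with upper-quartile scaling, -0.09 with library size alone and -0.02 with relative log expression, and the median of the set minus that of all genes was -0.46 to -0.40 under the 4 scalings. That offset was -0.05 without intima replicate 1 and 0.43 without intima replicate 2, where 15546 and 15361 genes were tested instead of 13408. In those fits the median of all genes was -0.54 and -0.62, and that of the set -0.59 and -0.19. The change of the genes tested and the loss of a library cannot be told apart there. The offset was -0.10 with the replicate number as a block, -0.41 in DESeq2 and -0.22 in limma voom. It was -0.75, -0.47 and -0.27 without adventitia replicate 1, 2 or 3. With at least 1 CPM in every library of a group it was -0.56, and after thinning to the smallest library -0.60. The offset was 1.71 with no filter on low counts, where many genes with few reads enter the median of all genes. Between the scalings 7 genes crossed 0 (Dhx58, Ddx60, Ifit1, Mx1, Bst2, Irf9 and Phf11d), but relative to the median of all genes only Dhx58 and Mx1, both near it, changed sign.

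Without regard to a test, both intima libraries lay above all 3 adventitia libraries for 6 of the 48 genes (12.5%), against 17.7% of all genes tested. They lay below all 3 for 13 of 48 (27.1%), against 23.2% of all genes, and the groups overlapped for the remaining 29. Both shares were near the background with TMM scaling. The share below exceeded it more with upper-quartile scaling (41.7 against 30.1%), library size alone (35.4 against 26.4%) and relative log expression (33.3 against 24.7%). So it did with at least 1 CPM in every library of a group (33.3 against 20.2%) and after thinning to the smallest library (39.6 against 20.4%). The share above stayed under that of all genes in these settings. With no filter on low counts it was 16.7 against 9.41%. Without adventitia replicate 1, 2 or 3, 18, 16 and 17 genes lay below (37.5, 33.3 and 35.4%, against 24.1, 24.3 and 25.4% of all genes). In the same settings 7, 6 and 10 genes lay above (14.6, 12.5 and 20.8%, against 21.2, 21.5 and 23.1%). Without intima replicate 1, 11 lay above and 25 below (22.9 and 52.1%, against 32.4 and 43.8%). Without intima replicate 2, 13 lay above and 18 below (27.1 and 37.5%, against 31.6 and 43.8%). The plot of levels by library shows this mixture role by role.

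**Figure D1:**
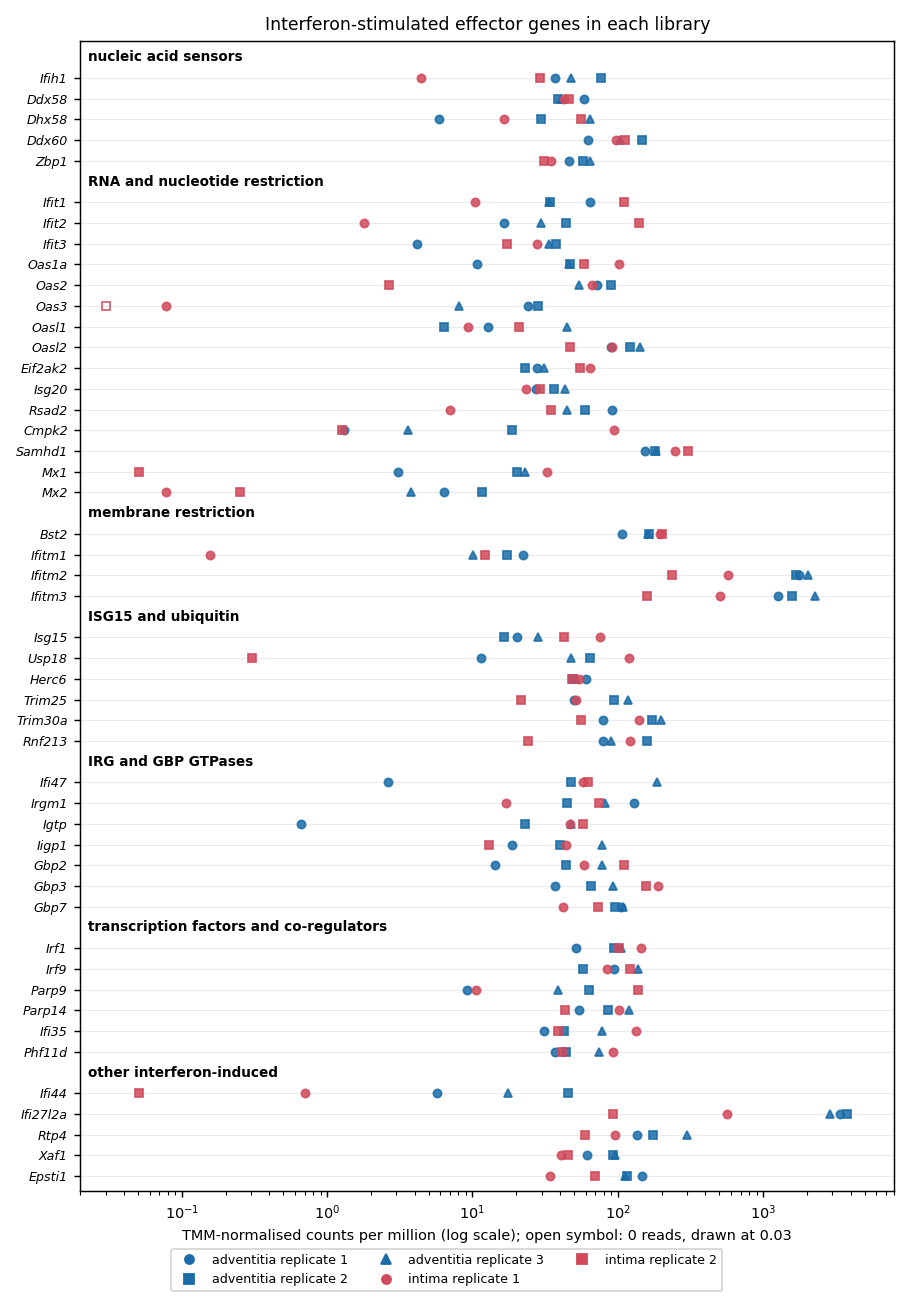
Level of each of the 48 interferon-stimulated effector genes in every library, as TMM-normalised CPM on a log axis, with adventitia libraries in blue and intima libraries in red and the symbol giving the replicate. Ifi27l2a, Ifitm2 and Ifitm3 stand apart at the right with the intima libraries below the adventitia libraries, and for most other genes the colours are mixed.

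Of the 5 sensors of nucleic acid, 3 overlapped between the layers and 2 were lower in both intima libraries, as 23.2% of all genes tested were. Ifih1, which encodes the double-stranded RNA sensor MDA5, was at 36.8, 76.4 and 47.3 CPM in the adventitia libraries against 4.39 and 29.3 CPM in the intima libraries. Both intima libraries were below the adventitia libraries, and the log2 difference of -1.67 (SE 0.94) missed the edgeR threshold with adjusted p = 0.323. Zbp1, a sensor of Z-form nucleic acid, was at 46.2, 57.2 and 63.95 CPM against 34.9 and 31.1 CPM, also without overlap, with an adjusted p of 0.561 in edgeR. Ddx58, which encodes the RNA sensor RIG-I, was at 58.9, 38.9 and 40.4 CPM in the adventitia libraries against 42.4 and 46.0 CPM in the intima libraries, inside the adventitia range. Ddx60, an RNA helicase, had the highest mean level per length among the sensors, and its groups overlapped at 62.8, 146 and 104 against 97.4 and 112 CPM. Its log2 difference was 0.01 (SE 0.53) and turned negative under 11 of the 14 alternatives. Dhx58 (LGP2, a regulator of RIG-I and MDA5) was more scattered, from 5.91 to 64.5 CPM in the adventitia and 16.4 to 56.2 CPM in the intima.

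The IFIT genes, whose proteins bind viral RNA, split the intima libraries. Ifit2 was at 16.4, 43.8 and 29.4 CPM in the adventitia, 1.80 CPM in intima replicate 1 but 139.5 CPM in replicate 2. Ifit1 was at 64.1, 34.3 and 33.6 CPM in the adventitia libraries against 10.3 and 110.1 CPM in the intima libraries. For both genes, 1 intima library lay below and the other above every adventitia library, and their log2 differences of 1.24 (SE 1.17) and 0.45 (SE 0.88) describe neither of them; the value of Ifit1 was -0.08 with upper-quartile scaling, which moved all genes down, and stayed above the median of all genes under the 4 scalings. Ifit3, from the same cluster on chromosome 19, was at 4.16, 37.5 and 33.6 CPM against 27.7 and 17.2 CPM, with intima replicate 1 the higher of the pair. Reads of Ifit3 and its near-identical copy Ifit3b may have been divided between them by the counting.

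The oligoadenylate synthetases, which switch on RNase L, had no common pattern. Oas1a, the gene with the highest mean level per length in this role, was at 10.7, 46.5 and 45.8 CPM in the adventitia libraries against 102 and 58.4 CPM in the intima libraries. The intima libraries were both above the adventitia, with a log2 difference of 1.22 (SE 0.74, edgeR adjusted p = 0.365), and Oas1a shares sequence with its near copy Oas1g. Oas3 had 110, 295 and 81 reads in the adventitia (24.1, 28.1 and 8.11 CPM) and 1 and 0 reads in the intima. The pooled ratio of adventitia over intima was 632, with a 95% counting interval of 113 to 25023, and the edgeR test gave adjusted p = 0.0868. Oas2 was at 72.0, 90.2 and 54.1 CPM in the adventitia libraries against 66.9 and 2.67 CPM in the intima libraries, so that only intima replicate 2 was outside the adventitia range. The related genes Oasl1 and Oasl2 overlapped between groups, at 6.37 to 44.9 against 9.33 to 20.8 CPM and at 89.3 to 143 against 46.9 to 91.2 CPM.

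Among the other genes acting on RNA and nucleotides, 2 lay higher in the intima without overlap, as 17.7% of all genes tested did. Eif2ak2, which encodes the translation-blocking kinase PKR, was at 27.8, 22.8 and 31.2 CPM against 64.6 and 55.3 CPM, a log2 difference of 1.14 (SE 0.69, edgeR adjusted p = 0.362). Samhd1, which depletes the nucleotide pool that reverse transcription needs, was at 154, 181 and 182 CPM against 248 and 304 CPM, a log2 difference of 0.68 (SE 0.41, edgeR adjusted p = 0.362). Isg20, an RNA exonuclease, overlapped at 27.3 to 43.2 against 23.3 to 29.0 CPM.

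Rsad2 and Cmpk2 are neighbours on chromosome 12 (26442753 to 26456452 and 26469204 to 26479835) and act in one nucleotide pathway, CMPK2 making the triphosphate that the product of Rsad2, viperin, converts to a chain terminator. Rsad2 was at 90.6, 59.8 and 44.8 CPM in the adventitia libraries against 6.98 and 34.9 CPM in the intima libraries, below all adventitia libraries, with a log2 difference of -1.63 (SE 0.84, edgeR adjusted p = 0.277). Cmpk2 was at 1.31, 18.8 and 3.60 CPM in the adventitia libraries against 93.5 and 1.26 CPM in the intima libraries. The pair therefore ran in opposite directions within the intima: Rsad2 was 5.01-fold higher in replicate 2 (95% counting interval 4.01 to 6.32) and Cmpk2 74.3-fold higher in replicate 1 (50.1 to 115). The log2 difference of Cmpk2 was 2.57 (SE 1.51) with both intima libraries and -2.79 without intima replicate 1.

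The Mx genes encode dynamin-like GTPases, and whether the transcripts of these mice give active proteins was not measured. Mx1 was at 3.06, 20.3 and 23.0 CPM in the adventitia, against 32.5 CPM in intima replicate 1, where it had 414 reads, and intima replicate 2 held a single read. Mx2 was low in every library, at 6.34, 11.6 and 3.80 CPM against 1 and 5 reads in the intima, a pooled ratio of adventitia over intima of 41.0 (95% counting interval 18.5 to 113, edgeR adjusted p = 0.159).

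Of the membrane restriction genes, Ifitm2, Ifitm3 and Bst2 were among the 4 with the highest levels of the set, and Ifitm1 was low. On the deposited RPKM scale, which divides by gene length, Ifi27l2a of the last role averaged 7739 in the adventitia, Ifitm2 3110, Ifitm3 2640 and Bst2 199, and no other of the 48 genes reached the level of Bst2 over the 5 libraries. Ifitm2 and Ifitm3 encode transmembrane proteins that block virus entry at endosomes. Ifitm2 was at 1773, 1693 and 2040.3 CPM in the adventitia libraries against 571 and 236 CPM in the intima libraries, 4.55-fold lower by the fitted log2 difference of -2.19 (SE 0.50, edgeR adjusted p = 0.0868); the fold was 8.53 without intima replicate 1 and 3.02 without intima replicate 2. Ifitm3 was at 1263, 1578 and 2273 CPM against 505 and 159.8 CPM, with a log2 difference of -2.36 (SE 0.58, edgeR adjusted p = 0.0868) that became -3.55 and -1.67 without the same libraries. In both, the higher intima library was under the lowest adventitia library, and the lower one was intima replicate 2. DESeq2 gave adjusted p = 0.00252 and 0.00461 for them and limma voom 0.0225 and 0.0309. Over the alternatives with both intima libraries the range was 0.00181 to 0.234 and 0.000531 to 0.240. Reads of these closely related genes may be shared by the counting.

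Ifitm1, the plasma membrane member of the family, was at 22.3, 17.2 and 10.0 CPM in the adventitia, 0.157 CPM (2 reads) in intima replicate 1 but 12.2 CPM in replicate 2. Its log2 difference of -1.41 (SE 1.66, edgeR adjusted p = 0.684) was below 0 under each of the 4 scalings, but replicate 2 lay inside the adventitia range. Within the intima Ifitm1 was higher in replicate 2, whereas Ifitm2 and Ifitm3 were lower there. Bst2, which encodes tetherin, a protein that holds budding virus at the cell surface, was at 107, 165 and 162 CPM in the adventitia libraries against 194 and 200.4 CPM in the intima libraries. The intima libraries were close to each other and lay above the adventitia, by a log2 difference of 0.45 (SE 0.44). It was -0.03 with upper-quartile scaling, which moved all genes down, and 0.31 to 0.32 above the median of all genes under each of the 4 scalings.

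Within the ISG15 system, the modifier and its protease had different patterns. Isg15, a ubiquitin-like protein that is attached to other proteins, was at 20.3, 16.6 and 28.3 CPM in the adventitia libraries against 75.1 and 42.5 CPM in the intima libraries. Both intima libraries were above every adventitia library, with a log2 difference of 1.43 (SE 0.75) and an edgeR adjusted p of 0.284. Usp18, which removes ISG15 and dampens receptor signalling, was at 11.4, 64.03 and 47.3 CPM in the adventitia, 119.7 CPM in intima replicate 1 but 0.302 CPM in replicate 2. Those intima values rest on 1527 and 6 reads, a ratio of 396 (95% counting interval 182 to 1081), and without intima replicate 1 the log2 difference of 0.55 (SE 1.39) became -7.17.

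The ligases were scattered around the adventitia range. Herc6, the main ISG15 ligase of mice, was the steadiest of this role at 60.8, 49.4 and 51.3 against 54.1 and 48.4 CPM. Trim25, which ubiquitinates RIG-I, was at 50.3, 94.7 and 117 against 51.3 and 21.6 CPM, a log2 difference of -1.26 (SE 0.67, edgeR adjusted p = 0.292). Rnf213, a very large ubiquitin ligase, was at 78.5, 158 and 89.6 against 121 and 24.0 CPM, and intima replicate 1 was 5.04-fold above replicate 2 (95% counting interval 4.54 to 5.59). All 6 genes of the ISG15 and ubiquitin system were higher in intima replicate 1 than in replicate 2, the reverse of Ifnb1. Trim30a shared that order, at 139 and 56.1 CPM. For Herc6 the ratio was only 1.12 (95% counting interval 1.01 to 1.23). Over all genes tested, replicate 2 was the higher for 47.7%.

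The interferon-inducible GTPases attack the vacuoles of intracellular pathogens, and 3 of the 7 measured had log2 differences above 0. Gbp3, with the highest level per length in this role, was at 37.0, 65.3 and 92.8 CPM in the adventitia libraries against 188 and 156 CPM in the intima libraries. Among the 48 genes it alone passed an unadjusted p under 0.05 in edgeR with the intima higher, and its log2 difference of 1.403 (SE 0.53) had an adjusted p of 0.152. The value stayed between 0.94 and 1.80 under the 14 alternatives, and no alternative with both intima libraries called it. Gbp2 was at 14.2, 44.1 and 77.9 against 58.9 and 111 CPM and overlapped, while Gbp7 was at 104, 94.95 and 109 against 42.3 and 73.5 CPM, below the adventitia. Counts of these related genes can be divided by the counting.

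The smaller immunity-related GTPases were spread widely among the adventitia libraries themselves. Igtp (Irgm3) was at 0.656, 22.9 and 47.7 CPM in the adventitia, where replicate 1 had 3 reads, and at 46.7 and 57.9 CPM in the intima. Ifi47 was at 2.63, 47.3 and 187 CPM in the adventitia libraries against 57.3 and 62.6 CPM in the intima libraries. Irgm1 went the other way, with adventitia replicate 1 highest at 129 CPM, replicates 2 and 3 at 44.7 and 81.2 CPM, and the intima at 17.1 and 73.8 CPM. Iigp1 was at 18.8, 40.2 and 78.0 against 43.7 and 12.9 CPM. Igtp shares exon bases on the same strand with Irgm2, and Ifi47 with Olfr56, so their reads depend on how the counting treated the overlap.

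The transcription factors and co-regulators all overlapped between the groups. Of all genes tested, 17.7% lay above and 23.2% below without overlap, and the rest overlapped too. Irf1 was at 51.6, 94.1 and 105 against 145 and 102 CPM, and Irf9, the DNA-binding part of ISGF3, at 93.4, 57.9 and 138 against 84.3 and 122 CPM. Parp9, which pairs with the ligase DTX3L to support interferon signalling, was at 9.19, 63.2 and 38.6 CPM in the adventitia libraries against 10.5 and 137 CPM in the intima libraries. Its log2 difference of 0.99 (SE 1.00) became -1.74 without intima replicate 2, and its exons overlap Dtx3l on the other strand. Ifi35 had the highest level per length in this role, at 30.8, 42.5 and 77.3 against 133 and 38.5 CPM. Its relation to the adventitia depended on the intima library, with replicate 1 above all 3 and replicate 2 inside their range. Parp14 and Phf11d were at 54.0 to 119 and 37.2 to 74.8 CPM in the adventitia and at 43.3 to 103 and 41.1 to 92.9 CPM in the intima.

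All 5 further interferon-induced genes had both intima libraries below all adventitia libraries, as 23.2% of all genes did. Ifi27l2a, of the Ifi27 family and a common marker of the interferon response, was at 3395, 3773 and 2894 CPM in the adventitia libraries against 562 and 92.8 CPM in the intima libraries. The log2 difference of -3.36 (SE 0.72) was 10.2-fold (39.6-fold without intima replicate 1 and 5.60-fold without intima replicate 2), with the lowest edgeR adjusted p of the 48 genes at 0.0737. DESeq2 gave it adjusted p = 0.000359 and limma voom 0.0137. It was also called in edgeR with library size alone, no filter on low counts, the 1 CPM filter or the replicate number as a block. The edgeR call failed with upper-quartile or relative log expression scaling, after thinning and without adventitia replicate 1, 2 or 3. Over the alternatives with both intima libraries the adjusted p ran from 1.46e-10 to 0.242. Intima replicate 1 was 6.06-fold above replicate 2 (95% counting interval 5.76 to 6.38).

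Rtp4, a receptor-transporting protein, was at 135, 175 and 298 against 95.6 and 59.6 CPM (log2 difference -1.39, SE 0.53, edgeR adjusted p = 0.154). Epsti1 was at 147, 115 and 112 against 34.2 and 69.4 CPM (log2 difference -1.26, SE 0.56, edgeR adjusted p = 0.207). Xaf1, a promoter of cell death, was at 61.3, 93.0 and 95.2 against 40.7 and 45.1 CPM. Ifi44 was at 5.69, 45.6 and 17.5 CPM in the adventitia against 9 reads and 1 read in the intima, a pooled ratio of 88.5 (95% counting interval 47.8 to 185, edgeR adjusted p = 0.116).

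**Figure D2:**
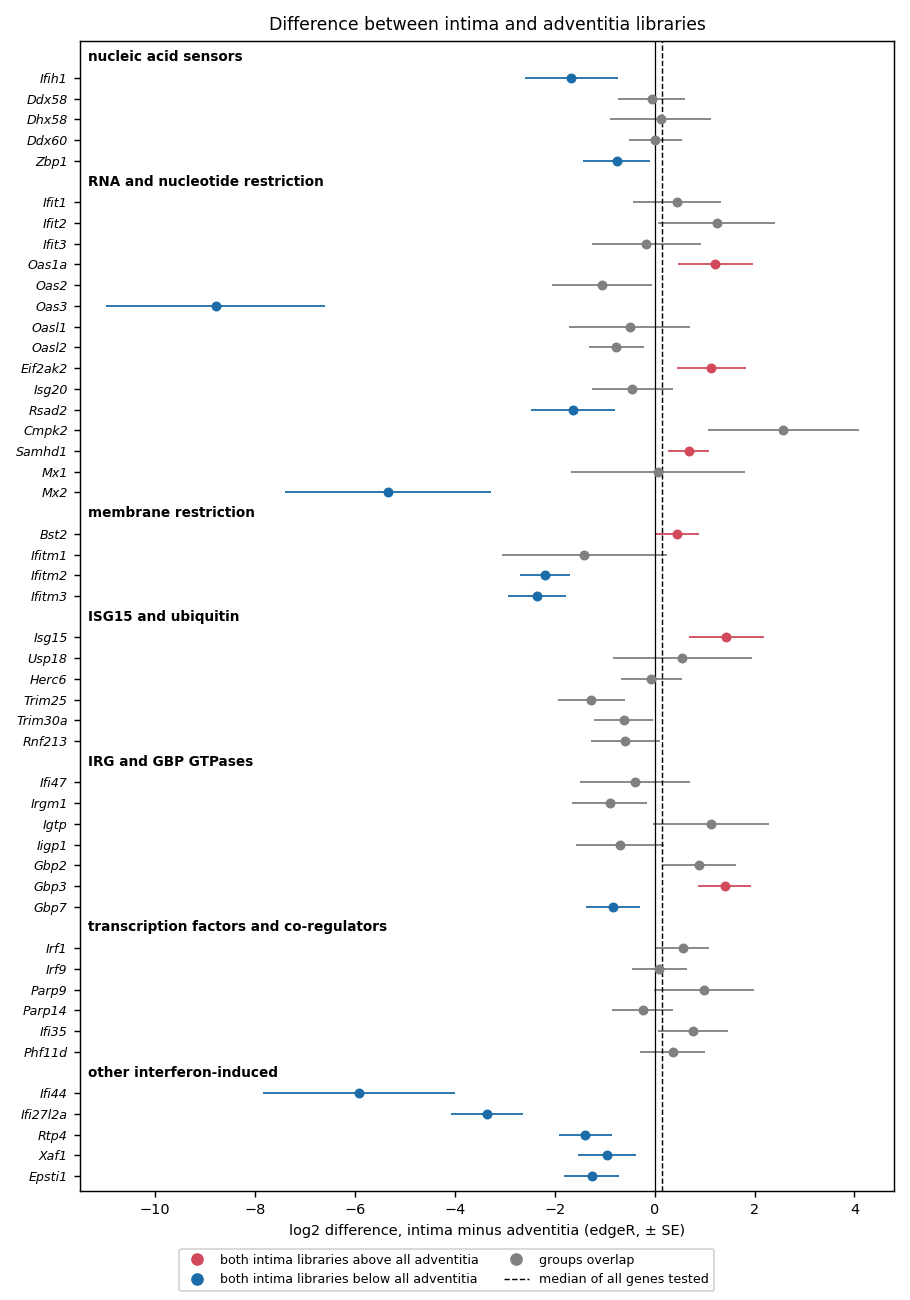
Log2 difference between intima and adventitia libraries from edgeR, with its SE, for the 48 genes grouped by role. Red and blue points are genes whose intima libraries are both above or both below all 3 adventitia libraries, grey points are genes whose groups overlap, and the dashed line is the median of all genes tested at 0.14; the blue points of the last role all lie below 0.

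Ifi27l2a, Ifitm2 and Ifitm3 held 67.3 to 74.7% of the summed level of the set in the adventitia libraries, 35.9% in intima replicate 1 and 15.3% in intima replicate 2. All 48 genes summed to 8607, 10062 and 10704 CPM in the adventitia libraries against 4559 and 3195 CPM in the intima libraries. Without Ifi27l2a, Ifitm2 and Ifitm3 the sums were 2176, 3018 and 3496 CPM against 2921 and 2707 CPM, so that the intima lay inside the adventitia range, and the median log2 difference was -0.17. These 3 genes were set aside after their values were seen.

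Whether the effector genes followed Ifnb1 was examined by the order of the libraries, since 5 libraries are too few for a correlation. The order of Ifnb1, with intima replicate 2 above intima replicate 1 and both above every adventitia library, was shared by Samhd1 and Bst2, or 2 of 48 genes (4.17%), against 9.62% of all genes tested. Samhd1 alone shared it under upper-quartile, library size or relative log expression scaling, against 5.73, 8.14 and 8.03% of all genes. Without adventitia replicate 3 it was shared by 5 genes (Samhd1, Bst2, Ifi47, Igtp and Gbp2; 10.4%), against 12.5% of all genes. For Bst2 the intima libraries differed by 1.03-fold (95% counting interval 0.981 to 1.09) and for Samhd1 by 1.23-fold (1.17 to 1.28), against 3.67-fold for Ifnb1. The bars by library show Ifnb1 beside 11 of the genes, and none of the 11 has the near absence from the adventitia that Ifnb1 shows.

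**Figure D3:**
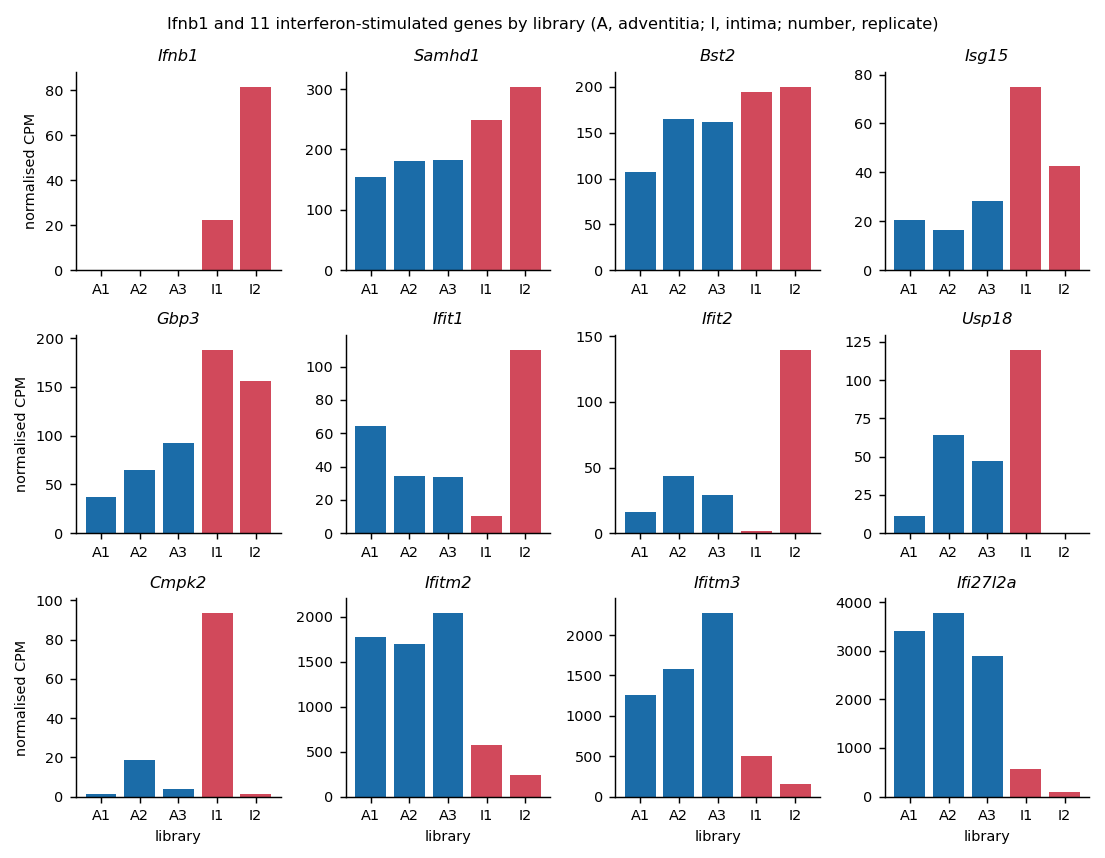
TMM-normalised CPM of Ifnb1 and 11 interferon-stimulated genes in each library, 1 bar per library, with adventitia replicates A1 to A3 in blue and intima replicates I1 and I2 in red, each panel on its own axis from 0. Ifnb1 is seen in the intima libraries at 22.3 and 81.7 CPM, Ifit1 and Ifit2 are highest in I2, Usp18 and Cmpk2 are highest in I1, and Ifitm2, Ifitm3 and Ifi27l2a are highest in the adventitia.

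Within the intima, intima replicate 2, which held more Ifnb1, was the higher library for 22 of the 48 genes (45.8%), against 47.7% of all genes tested, and the median log2 ratio of replicate 2 over replicate 1 was -0.20 for the set and -0.14 over all genes. The genes that stood out toward replicate 2 were Ifit2 at 77.4-fold (95% counting interval 51.5 to 122), Parp9 at 13.1-fold (10.98 to 15.7), Ifit1 at 10.6-fold (8.92 to 12.8), Ifih1 at 6.68-fold (5.07 to 8.95) and Rsad2 at 5.01-fold. Toward replicate 1 they were Usp18 at 396-fold, Cmpk2 at 74.3-fold, Oas2 at 25.1-fold (19.0 to 33.8), Ifi27l2a at 6.06-fold and Rnf213 at 5.04-fold. These intervals cover counting error only, and each ratio compares 1 library with 1 other.

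Disagreement between the intima libraries was wider than among the adventitia libraries, for this set and for all genes. The median fold difference between the intima libraries was 2.31 for the 48 genes and 2.85 for all genes tested, against 1.41 to 1.96 and 1.70 to 1.99 for the 3 pairs of adventitia libraries. A difference of at least 4-fold separated the intima libraries for 15 of the 48 genes (31.3%), 7 higher in replicate 2 and 8 in replicate 1, and for 41.5% of all genes. One intima library lay above and the other below every adventitia library for Ifit1, Ifit2, Cmpk2, Mx1 and Usp18, or 10.4% of the set, against 19.0% of all genes tested.

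Some genes were all but lost from 1 intima library. Of the 45 genes at 10 CPM or more in either intima library, Mx1, Usp18 and Ifitm1 were under 0.5 CPM in the other (6.67%), against 14.3% of all such genes. None of the 48 showed this between any pair of adventitia libraries, where the share over all genes was 1.20 to 1.71%. In these libraries, made from amplified cDNA of sorted cells, a gene near 0 in 1 library and well read in the other is a difference between the libraries, and its source was not tested.

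**Figure D4:**
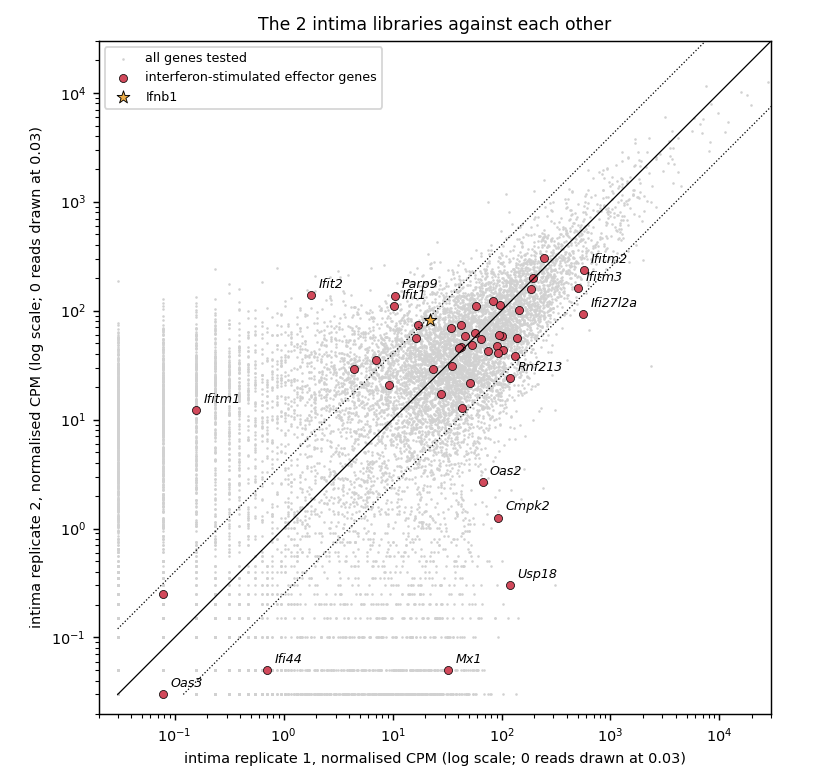
Level of each gene in intima replicate 2 (vertical) against intima replicate 1 (horizontal), as TMM-normalised CPM on log axes, for all genes tested (grey), the 48 interferon-stimulated genes (red) and Ifnb1 (star). The solid line marks equal levels and the dotted lines a 4-fold difference; 15 of the 48 genes lie outside the dotted lines, 7 above and 8 below.

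The libraries also differed in how often they were the extreme one. Adventitia replicate 1, the library with the fewest reads, was the lowest of the 5 for 14 of the 48 genes, intima replicate 2 for 18 and intima replicate 1 for 11. The highest level fell in adventitia replicate 3 for 16 genes, in intima replicate 1 for 10, in adventitia replicate 2 for 9, in intima replicate 2 for 7 and in adventitia replicate 1 for 6.

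The genes upstream of the effectors gave few differences. Of 53 ligand, receptor, kinase, transcription factor, sensing and feedback genes listed, 32 had enough reads and 1 passed the edgeR test, Ifnb1 itself. The receptor gene Ifnar1 was at 55.6, 57.9 and 42.8 CPM in the adventitia libraries against 66.3 and 113 CPM in the intima libraries, and Ifnar2 at 130.4, 98.4 and 82.7 against 95.7 and 61.7 CPM. Neither passed the test, with edgeR adjusted p of 0.462 and 0.722.

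Stat2, a subunit of ISGF3, was at 75.7, 65.3 and 84.9 CPM in the adventitia libraries against 82.9 and 33.7 CPM in the intima libraries (log2 difference -0.37, SE 0.61), and the groups overlapped. Irf7, which amplifies the response and is itself interferon-induced, was at 104, 165 and 189 CPM in the adventitia libraries against 0.392 and 46.5 CPM in the intima libraries. Its intima libraries were both below the adventitia, and the log2 difference of -2.70 (SE 1.24) had an edgeR adjusted p of 0.225.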

How the data were processed

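Poly-A RNA of sorted cells was made into cDNA with a low-input SMARTer kit, amplified and sequenced as single reads, per the labels' protocols. The deposited count column holds whole reads per Ensembl gene, and the deposited CPM and RPKM columns equal those computed from these counts by total reads and gene length, with 0 mismatches at a tolerance of 1e-06, per the file headers and values. The submitters' processing notes name GRCm38, STAR 2.0.4b, Subread and featureCounts 1.4.5; annotation release, strand setting and the handling of shared reads are not given in the sources used here, so reads of overlapping or near-identical genes are uncertain.

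Symbols were found for 40254 of 41388 IDs. The effector genes, their roles and the other lists (53 pathway genes, 67 further interferon-stimulated genes and 95 cell type markers) were chosen with earlier results of these data known. Counts of all genes were tested with edgeR 4.0.16 (glmQLFit, glmQLFTest) in R 4.3.3 over all 5 libraries, after filterByExpr by group (minimum count 10, minimum total 15), with TMM scaling, no covariates and Benjamini-Hochberg adjustment over 13408 genes; calls needed an adjusted p under 0.05. Count ratios between libraries or groups used TMM-adjusted library sizes and exact intervals at 95%; these cover counting error alone, because amplified reads that carry no molecular identifier are not separate molecules. Log2 ratios between the intima libraries used a prior of 0.5 reads.

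Named genes were Ifnb1, called effector or pathway genes, the 8 differences of largest size in each direction at an average log2 CPM of at least 4, per role the gene with the highest mean RPKM and that with the largest difference, the 5 largest intima ratios in each direction, and Stat2, Irf7, Ifnar1, Ifnar2 and one further pathway gene that is not reported here; other effector genes are given by their values to complete their role. Alternatives were other scalings, filters, DESeq2 1.42.0, limma 3.58.1 voom, thinning to the smallest library, the replicate number as a block and leaving out each library. Tables and figures used Python 3.11.15, pandas 2.3.3, scipy 1.17.1 and matplotlib 3.10.9.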

Additional observations from a re-analysis of the deposited data

How the results depend on the processing

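With other scalings the median log2 difference of the 48 genes was -0.77 under upper-quartile scaling, where 20 genes lay below all adventitia libraries (41.7%, against 30.1% of all genes), and 1 gene, Samhd1, had the order of Ifnb1 under upper-quartile, library size or relative log expression scaling, the 1 CPM filter and thinning to the smallest library. Thinning moved the median to -0.65, beside -0.05 over all genes tested there. None of the 48 genes was called higher in the intima under any alternative with both intima libraries. The count called lower was 0 in edgeR with TMM and 2 with library size alone (Ifitm2 and Ifi27l2a). It was 4 without a filter on low counts and 4 with at least 1 CPM in every library of a group (both Oas3, Ifitm2, Ifitm3 and Ifi27l2a). DESeq2 and limma voom each gave 6. Of all genes tested, in either direction, these fits called 0.671, 0.694, 1.22, 3.72, 9.14 and 6.26% in that order. DESeq2 and limma voom called 5.41 and 4.66% of all genes lower in the intima. The 24 named effector genes and Ifnb1 gave 350 log2 differences under the alternatives. Of these, 25 turned and 3, all of Ifnb1, lost their call. The others kept direction. The cause was not tested.

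Ddx60, near 0 in edgeR with TMM, was at -0.47 with upper-quartile scaling, -0.21 with library size, -0.13 with relative log expression, -0.15 with the 1 CPM filter, -0.13 in DESeq2, -0.0062 in voom and -0.33 after thinning. Ifit1 was at -0.083 with upper-quartile scaling and -0.073 after thinning. In voom, Ifit2 was at -0.36 and Usp18 at -3.42.

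Each library was left out in turn. Without adventitia replicate 1, 2 or 3 none of the 48 genes was called. Few of all genes tested were called there either, at 10, 52 and 46 (0.081, 0.41 and 0.36%). Without intima replicate 1 or 2 a single intima library remained, so calls are not counted for those fits. The genes above all adventitia libraries numbered 6 to 13 (21.2 to 32.4% of all genes), those below 16 to 25 (24.1 to 43.8%) and those in the order of Ifnb1 2 to 5 (11.5 to 12.5%), the last 5 without adventitia replicate 3. Log2 differences ran from -1.74 to 1.75 for Parp9, -3.96 to 2.08 for Ifit2, -1.99 to 1.19 for Ifit1, -2.79 to 4.21 for Cmpk2, -0.32 to 0.29 for Ddx60, -0.52 to 1.49 for Ifi35, -7.17 to 1.63 for Usp18 and -2.32 to 0.24 for Rnf213. With 1 intima library left, its spread was taken to equal that of the adventitia group.

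The labels give a replicate number but do not say that it pairs the samples. Deviations of same-numbered libraries from their group mean correlated at 0.035 for number 1 and 0.0057 for number 2 over 13408 genes. With 2 intima libraries their deviations mirror each other, so these values are not separate checks. A correlation near 0 cannot exclude shared handling. With the replicate number as a block, 1 gene was called lower (Ifi27l2a), 183 of all genes were called against 90, and Ifit2, Usp18 and Ifit1 stood at -0.70, -1.96 and -0.47.

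Depth limits the low genes: 3 reads equal 0.761 CPM in adventitia replicate 1 but 0.144 CPM in intima replicate 2.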

Other observations

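A second list of 67 interferon-stimulated genes outside the effector set held chemokines, surface proteins, p200 family members and antigen-processing genes. Of these, 58 had enough reads, and 1 passed the edgeR test. This was Ccl12, a monocyte-attracting chemokine, at 2518, 3373 and 2875 CPM in adventitia replicates 1 to 3 and 361 and 108 CPM in intima replicates 1 and 2 (log2 difference -3.64, SE 0.61, adjusted p = 0.0210). The median log2 difference of the 58 was -0.04, with 26 above 0 and 32 below, beside 0.14 over all genes tested.

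At an unadjusted p under 0.05, edgeR gave 9 of the 58, with 7 lower in the intima, against 14.3% of all genes tested, and 2 higher, against 8.16%; neither share exceeded that over all genes. Ly6a, a surface antigen also known as Sca-1, was at 72.4, 397 and 430.0 against 13.0 and 1.21 CPM, and Ly6e, which limits coronavirus entry, at 1741, 2196 and 3705 against 1216 and 631 CPM. The others on the low side were Ccl12, Ifi203, Ifi213, Cd274 and Ifi30. On the high side, Cxcl10, a chemokine that is a usual readout of interferon, was at 113, 63.7 and 46.7 against 345 and 118 CPM (adjusted p = 0.135), and Lgals9, which encodes galectin-9, at 63.7, 185 and 228 against 451 and 305 CPM (adjusted p = 0.198). Both intima libraries were above all adventitia libraries for both genes, and for both intima replicate 1 was the higher, unlike Ifnb1.

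Among the upstream genes, those with an unadjusted p under 0.05 in edgeR besides Ifnb1 were Irf5, Irf8, Ptpn6 and Ptpn2 on the intima-higher side and Cgas, Ikbke and Tlr7 on the lower side. Irf8, a factor of the macrophage and dendritic cell lineage, was at 45.3, 51.6 and 76.0 against 117 and 301 CPM (adjusted p = 0.109), and Irf5, which acts below Toll-like receptors, at 94.5, 106 and 112 against 128 and 363 CPM (adjusted p = 0.178). The library order of Ifnb1 was shared by 5 of the other 31 upstream genes tested (16.1%; Irf8, Irf5, Ifnar1, Myd88 and Ptpn6), against 9.62% of all genes. Cgas, the cytosolic DNA sensor, had 4.81, 29.4 and 17.3 CPM in the adventitia against 3 reads and 1 read in the intima (adjusted p = 0.112). These genes were picked from their list after the values were seen, and 31 of the 32 tested did not pass the test.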
